A study of Mus musculus with 18 samples.

Results

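Bone marrow-derived macrophages of Irf4-/- mice were kept for 4 h with IL-4 (3 samples) or for 18 h without it (mock, 3 samples), and the early IL-4 response without IRF4 was read across all genes from these 6 samples, of 18 in the series. The samples were chosen by their titles. The letters A, B and C in the titles were taken to mark the 3 independent experiments of the study design. Each Irf4-/- IL4 4h sample was thus paired with the Irf4-/- mock sample of its letter. IL-4 was mouse recombinant protein at 10 ng/ml, the mice were C57BL6/J animals of 8 to 12 weeks, males and females per the labels, and marrow cells of several animals were pooled and grown in human CSF1. The other samples used for comparison were Irf4-/- macrophages after 18 h of IL-4 and macrophages of Irf4+/- littermates after 4 h of IL-4 or 18 h without it, again 3 of each. The only mock is an 18 h culture, so an effect of IL-4 and one of the culture time cannot be told apart in this comparison. In RNA of a whole culture, fewer cells of a type and less RNA per cell cannot be told apart either.

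IL-4 binds a receptor whose specific chain is encoded by Il4ra, and receptor-bound Janus kinases then phosphorylate STAT6, which enters the nucleus and binds a split palindrome in the DNA of its target genes. In mouse macrophages this gives the state called alternative activation, known for arginase 1, resistin-like alpha and lectin receptors. Irf4 is itself a gene that IL-4 raises in macrophages, and its product binds DNA together with other factors such as PU.1.

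RNA was labelled with Cy3 and hybridised to 1-colour Agilent arrays, 1 per sample. A level is given as the log2 intensity of a gene's probe after subtracting the 75th percentile of its array, which compares samples for 1 probe but not different probes, and the 3 values of a group stand in the order A, B, C. A change is 4 h of IL-4 minus mock on that log2 scale with its standard error, from a limma fit over all 18 arrays with the experiment as a block, and "rose" or "fell" means an adjusted p under 0.05 among the 15554 genes tested, of 21171 named on the array. On the 6 arrays, 63.4% to 69.0% of 43379 spots were well above background, and the arrays correlated with each other at 0.952 to 0.992. The pairs of A and of B each lay on 1 slide and the pair of C on 2 slides. All 18 macrophage genes listed, among them those of the CSF1 receptor, F4/80 and CD68, were well above background on all 6 arrays. Their levels were not all alike between experiments. C1qa stood at 1.40 after IL-4 and 1.98 in mock in A, against 5.37 to 5.76 in B and C. Csf1r lay between 5.92 and 6.28 on all 6 arrays. The cause of the difference in C1qa was not tested. The single Irf4 probe was not lower in Irf4-/- samples. Since the sources used here do not place it inside or outside the deletion, it checks nothing about the genotype. Xist, which female cells express, stood at 2.36 and 2.63 after IL-4, against 2.90 and 2.91 in mock, in experiments A and C, but at -8.06 after IL-4, against -8.24 in mock, in B, while the Y-linked genes Ddx3y, Kdm5d and Eif2s3y were well above background on all 6 arrays. Experiment B thus showed no Xist signal above background in either of its samples.

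18.0% of the genes tested changed, 1569 upward (10.1%) and 1236 downward (7.95%). These 2 shares are the background for every count of list members below. The largest changes were rises. At least 2-fold changes numbered 491 rises and 401 falls, those of at least 8-fold 70 and 5, and those of at least 32-fold 22 and 0. Of the 2805 genes, 2799 moved the same way in all 3 experiments, against 63.6% of all genes, and in 1829 the arrays of the 2 groups did not overlap, against 21.6% of all genes (11.8% upward and 9.73% downward). Both counts follow in part from the calls, which used the same arrays, and are no independent sign of agreement between experiments. The median gene stood at 0.08. Without the block 594 genes were called, 338 up and 256 down, and with the slide as a fixed block 3171. The count was 1868 without the mock array of C and 1821 without the IL-4 array of C. Leaving out both arrays of A gave 1574, of B 1379 and of C 984.

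**Figure D1:**
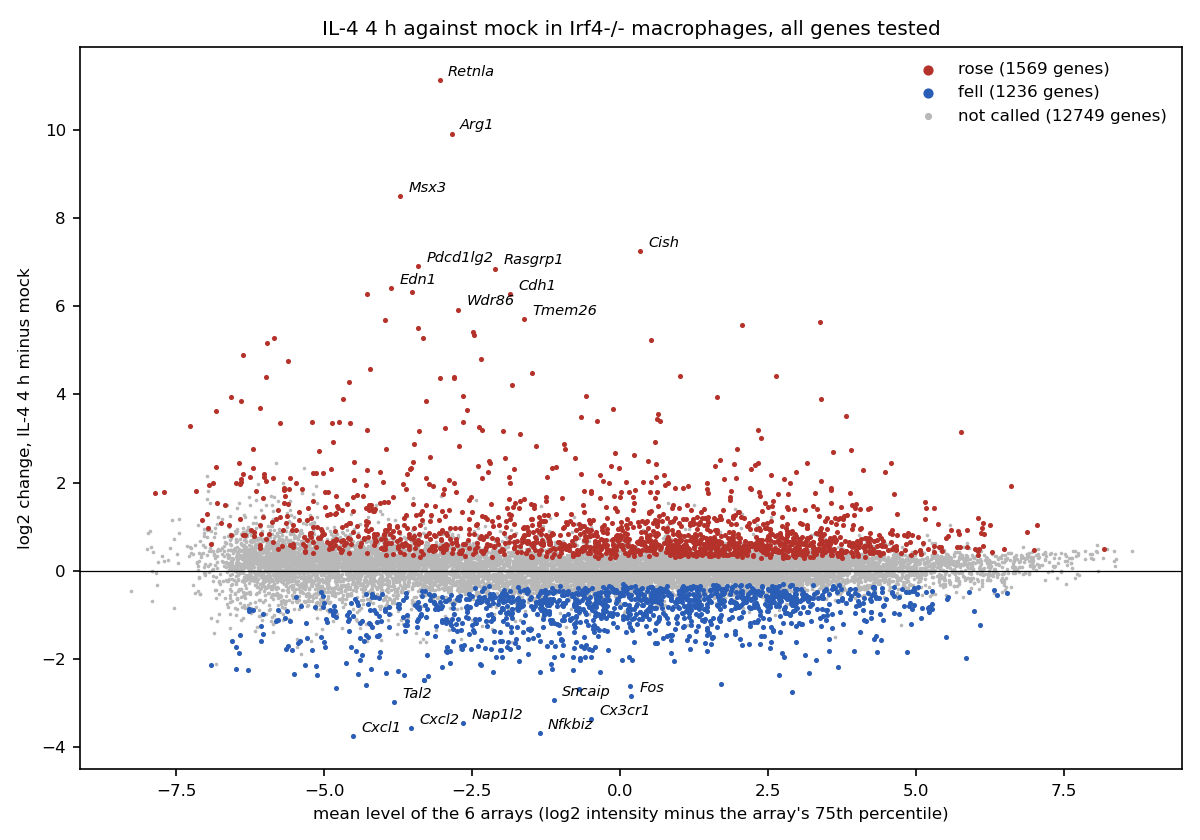
Change with 4 h of IL-4 (log2, 4 h minus mock) against the mean level of the 6 arrays (log2 intensity less the 75th percentile) for each of 15554 genes in Irf4-/- macrophages, with the 1569 rises in red, the 1236 falls in blue and the rest in grey. The rises reach 11.14 with Retnla, and the falls end at -3.75 with Cxcl1.

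The 15 largest rises were led by genes of the alternatively activated state. Retnla, encoding the secreted resistin-like alpha, stood at 3.62, 1.87 and 2.08 after IL-4, against -8.35, -8.29 and -9.19 in mock. Its mock signal was on no array well above background, so the change of 11.14 ± 0.38 (adjusted p = 6.21e-09) is given as at least 592-fold. Such a figure, here and below, puts the lowest well-above-background level of each mock array in place of a dimmer mock level. It is approximate, since some probes above that level were still not well above background. Arg1, encoding arginase 1, which makes ornithine and urea from arginine, stood at 1.75, 1.89 and 2.71 after IL-4, against -8.54, -6.89 and -7.96 in mock, a change of 9.92 ± 0.64 (adjusted p = 7.48e-07, at least 446-fold). In both genes every IL-4 array lay far above every mock array. The homeobox gene Msx3 (8.50 ± 0.51, at least 149-fold) and Edn1, encoding the vasoconstrictor peptide endothelin 1 (6.41 ± 0.77, at least 65.4-fold), also rose out of the background. Pdcd1lg2, the gene of PD-L2, which binds the inhibitory receptor PD-1, rose by 6.91 ± 0.52, Rasgrp1, a Ras activator, by 6.86 ± 0.49 (2.56 on its other kept probe), and the phospholipid acyltransferase gene Mboat2 by 6.33 ± 0.48. Cdh1, encoding the adhesion molecule E-cadherin, stood at 2.13, 0.52 and 1.21 after IL-4, against -4.08, -5.60 and -5.31 in mock, a rise of 6.28 ± 0.36. The dopamine receptor gene Drd4 (6.28 ± 0.53), Wdr86 (5.93 ± 0.53), Tmem26 (5.70 ± 0.38) and the protease inhibitor gene Serpina3g (5.57 ± 0.37) followed. Pdcd1lg2, Mboat2 and Drd4 were well above background on 1 of 3 mock arrays, so their changes are read in part against background. Cish, Gata3 and Socs1 complete the 15 and stand with their families below.

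STAT6 is known to bind the letters TTC and GAA with any 4 bases between them, a pattern that reads the same on both strands, and it was searched in RefSeq promoter windows (GRCm38.p6, 250 bases before to 50 after each gene's start). Of the 15 largest rises 13 had a window, and 5 of these held the pattern before the start. They are shown because they carry the steepest changes, as 120 bases of the gene's strand, 5′ to 3′, with matches in capitals.
Retnla, chr16:48842409-48842528: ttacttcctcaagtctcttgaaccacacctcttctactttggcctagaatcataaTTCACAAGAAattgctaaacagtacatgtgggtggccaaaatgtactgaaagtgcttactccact
Pdcd1lg2, chr19:29410782-29410901: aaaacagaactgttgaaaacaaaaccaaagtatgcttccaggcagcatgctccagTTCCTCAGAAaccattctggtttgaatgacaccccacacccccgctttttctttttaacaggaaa
Edn1, chr13:42301236-42301355: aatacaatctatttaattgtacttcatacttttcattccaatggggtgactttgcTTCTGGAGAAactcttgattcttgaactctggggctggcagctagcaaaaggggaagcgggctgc
Drd4, chr7:141291820-141291939: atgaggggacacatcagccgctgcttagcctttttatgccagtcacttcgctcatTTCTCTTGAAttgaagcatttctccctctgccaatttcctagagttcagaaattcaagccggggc
Tmem26, chr10:68723496-68723615: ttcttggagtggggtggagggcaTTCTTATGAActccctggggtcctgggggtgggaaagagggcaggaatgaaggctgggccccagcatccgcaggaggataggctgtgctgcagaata
All 5 genes lie on the + strand. The match begins 145 bases before the start of Retnla, 82 before that of Pdcd1lg2, 185 before that of Edn1, 143 before that of Drd4 and 227 before that of Tmem26, whose window holds a second match outside the stretch shown. Of the 15 largest falls 9 had a window and 1, that of the kinase gene Txk, held the pattern.

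Over all genes the same windows give a background for these matches. The STAT6 pattern stood in 7.64% of 1217 windows of genes that rose, in 3.76% of 958 windows of genes that fell, and in 5.59% of 11689 windows of genes tested (6.99% of all 27025). Among rises of at least 4-fold it stood in 9.40% of 117 windows, and among those of at least 8-fold in 10.7% of 56. The pattern with 3 bases in the gap, TTCNNNGAA, which other STAT proteins bind, stood in 6.98%, 7.41% and 7.04% of the windows of rises, falls and tested genes. CACGTG, the E-box bound by Myc and clock factors, stood in 13.1%, 8.98% and 9.57%, and an NF-kB type pattern, GGGA and CC with 4 bases between them on either strand, in 24.9%, 29.6% and 25.0%. The composite site on which IRF4 pairs with ETS factors, GGAA and GAAA with 2 bases between them on either strand, stood in 2.38%, 2.71% and 2.48%. These shares describe letters in a short window and were not tested.

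The 15 largest falls were led by genes of acute inflammation. Cxcl1, encoding a chemokine of neutrophils, stood at -7.45, -5.71 and -6.01 after IL-4, against -1.88, -3.18 and -2.85 in mock, a change of -3.75 ± 0.70 (adjusted p = 0.00232), and its signal was not well above background on 1 of the 3 IL-4 arrays, as was also the case for Cxcl2, Sox7 and Txk. Nfkbiz, encoding the NF-kB cofactor I-kappa-B zeta, stood at -3.49, -2.24 and -3.87 after IL-4, against 0.72, 0.65 and 0.10 in mock (-3.69 ± 0.41, adjusted p = 5.98e-05). No array of either gene crossed into the other group. Cxcl2, another neutrophil chemokine gene, fell by 3.56 ± 0.69. Cx3cr1, the fractalkine receptor gene, stood at -1.32, -1.84 and -3.36 after IL-4, against 2.35, 1.10 and 0.14 in mock, with C lowest in both groups (-3.37 ± 0.30, -2.34 on its other kept probe). Fos, a subunit of AP-1, stood at -1.58, -0.92 and -1.19 after IL-4, against 2.18, 1.22 and 1.40 in mock (-2.84 ± 0.36). Tlr2, the receptor of bacterial lipoproteins, fell by 2.76 ± 0.29, and Tnf, encoding tumour necrosis factor, by 2.60 ± 0.46. Slc40a1, the gene of ferroportin, through which cells release iron, fell by 2.68 ± 0.33. The other large falls were Nap1l2, a nucleosome assembly gene (-3.44 ± 0.26), the transcription factor genes Tal2 (-2.98 ± 0.31) and Sox7 (-2.59 ± 0.26), Sncaip, encoding synphilin 1 (-2.93 ± 0.41), Txk (-2.65 ± 0.49), the cytochrome P450 gene Cyp2s1 (-2.57 ± 0.31) and the laminin gene Lama3 (-2.48 ± 0.24, but 0.23 on its other kept probe). Without the block, the adjusted p was 0.0564 for Cxcl2, 0.562 for Sox7 and 0.0518 for Cyp2s1.

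**Figure D2:**
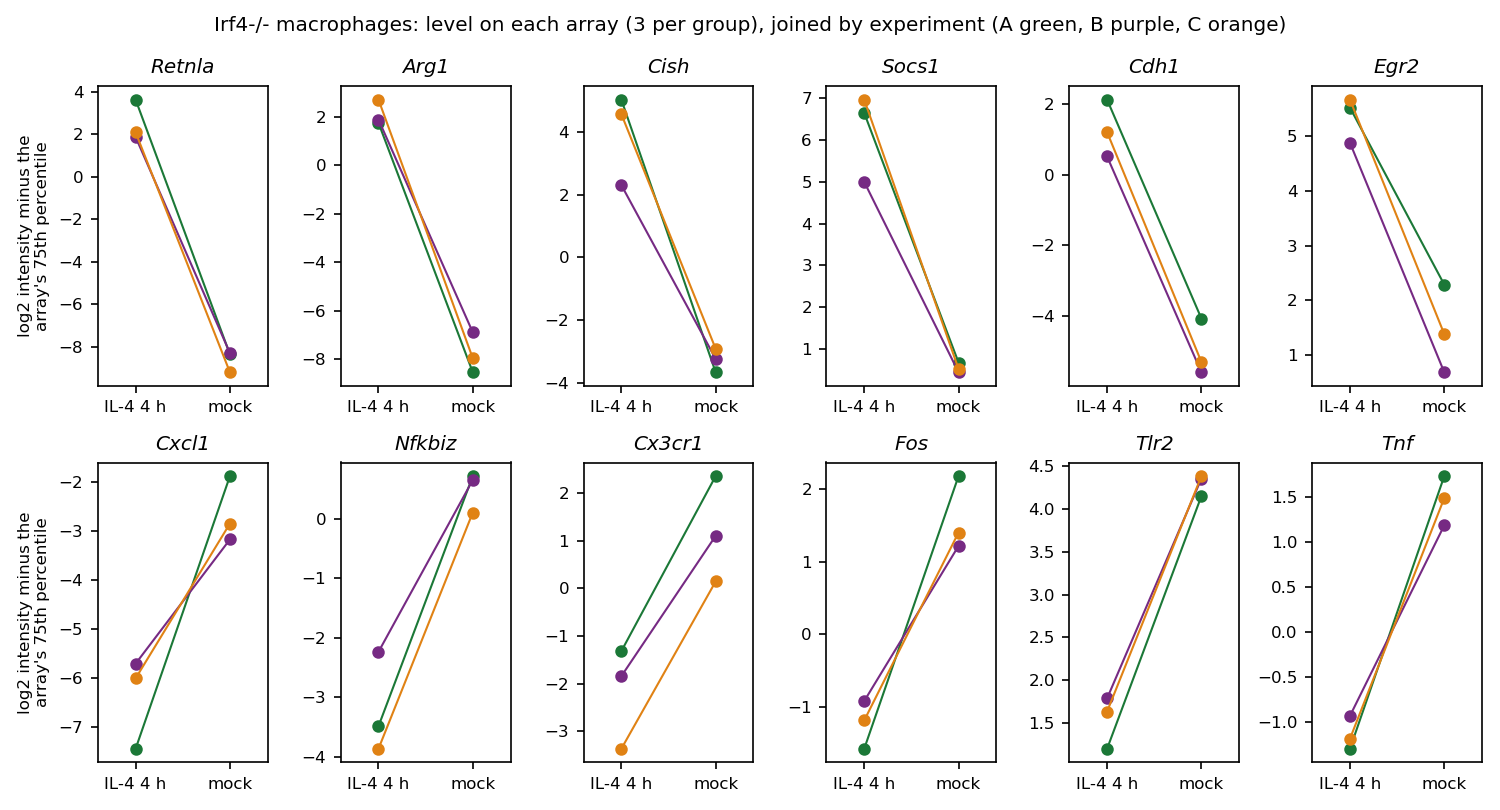
Level of 12 genes on each array (log2 intensity less the 75th percentile), with 4 h of IL-4 at the left and mock at the right of each panel and 1 line per experiment (A green, B purple, C orange). Every IL-4 array lies above every mock array for the 6 genes of the upper row and below for the 6 of the lower row.

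Within the receptor and its signal chain, changes ran both ways. Of 18 tested genes of receptor chains and JAK-STAT6 transducers, 4 rose and 4 fell (2 and 2 without the block). Over all genes 10.1% rose and 7.95% fell. Il4ra stood at 3.54, 3.61 and 4.86 after IL-4, against 2.34, 2.59 and 2.67 in mock, a rise of 1.47 ± 0.25 (adjusted p = 0.0013). Jak2, encoding a kinase of cytokine receptors, rose by 1.39 ± 0.14, with 1.53 on its other kept probe. Il13ra1, whose chain pairs with the IL-4 receptor chain in the type II receptor, fell by 1.13 ± 0.20, and Stat6 itself by 0.57 ± 0.10, on all 3 of its kept probes. In each of these 4 genes the IL-4 and mock arrays did not overlap.

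Negative regulators of cytokine signalling held some of the steepest rises of the response. Of 17 tested SOCS and feedback genes 5 rose and 2 fell, against 10.1% and 7.95% of all genes. Cish, an early target of STAT proteins, stood at 5.03, 2.30 and 4.57 after IL-4, against -3.67, -3.24 and -2.92 in mock (7.24 ± 0.81, adjusted p = 6.02e-05). Socs1, whose protein blocks Janus kinases, stood at 6.65, 5.00 and 6.96 after IL-4, against 0.68, 0.45 and 0.53 in mock (5.65 ± 0.38, adjusted p = 9.94e-07). The spread of both lay among the IL-4 arrays, with B lowest, while the mock arrays lay close together. Socs2 rose by 3.23 ± 0.48, Socs5 by 1.92 ± 0.18, the MAP kinase phosphatase gene Dusp4 by 2.69 ± 0.29 and, on the other side, the phosphatase gene Dusp1 fell by 2.04 ± 0.34. Spry2, a brake on growth factor signals, was called lower (-2.03 ± 0.36), but its other kept probe stood at 1.02. In the fit without the block, the adjusted p was 0.148 for Dusp1.

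Among 35 transcription factor genes named in work on alternative activation, 14 rose and 7 fell, against 10.1% and 7.95% of all genes. Egr2, an immediate early zinc finger gene of macrophages treated with IL-4, stood at 5.53, 4.88 and 5.67 after IL-4, against 2.29, 0.69 and 1.38 in mock (3.91 ± 0.24, adjusted p = 4.84e-07). Gata3, the factor of type 2 helper T cells, rose by 5.68 ± 0.58, and its level differed widely between experiments, at 0.75, -3.34 and -0.80 after IL-4, against -4.36, -8.25 and -7.81 in mock. Its mock signal was well above background on 1 of 3 arrays, so the size of this rise is uncertain. Batf3 (3.93 ± 0.39), Nfil3 (3.20 ± 0.21), Klf4 (2.29 ± 0.18) and Bhlhe40 (1.69 ± 0.14) rose as well. The signal of the Irf4 probe rose by 2.50 ± 0.30, and the probe does not tell whether that transcript is intact. Falls included Nr4a1, an immediate early nuclear receptor gene (-1.74 ± 0.25), and Nr1h3, encoding the oxysterol receptor LXR alpha (-1.19 ± 0.20). Of the immediate early genes outside this list, Ier3 (3.45 ± 0.29) and Fosl2 (2.33 ± 0.26, 1.43 on its other kept probe) rose while Fos fell. Myc was not called (1.28 ± 0.56, adjusted p = 0.134). Nor was Pparg, encoding the lipid-sensing nuclear receptor (0.07 ± 0.25, adjusted p = 0.868).

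The IL-4 macrophage signature, 40 genes drawn from textbook knowledge and earlier results of these data, stood mostly above 0. Because the list was partly drawn from these samples, its count is not independent evidence of its direction. Of 37 tested members 35 stood above 0 and 25 rose and 1 fell, with the median 1.47, against 0.08 over all genes tested. The lectin genes Mgl2 (4.43 ± 0.23) and Clec10a (3.14 ± 0.16), close copies whose probes may share signal, rose, and the mannose receptor gene Mrc1 stood at 5.59, 6.10 and 6.40 after IL-4, against 4.50, 4.44 and 4.86 in mock (1.43 ± 0.16, adjusted p = 7.24e-05). Lectin receptors did not rise as a set. Of 20 tested C-type lectin and scavenger receptor genes 4 rose and 8 fell (3 and 1 without the block), against 10.1% and 7.95% of all genes. Among genes that move solutes, Slc7a2, encoding an arginine carrier, rose by 5.28 ± 0.24 (well above background on 2 of 3 mock arrays) and Aqp3, encoding a channel for water and glycerol, by 5.42 ± 0.63. Flt1, encoding a receptor of vascular growth factors, rose by 4.43 ± 0.24, with 2.24 to 6.05 on its 3 other kept probes. Chil3, encoding a chitinase-like secreted protein, was not called, with levels of 4.72, 1.66 and 2.12 after IL-4, against 3.19, 1.14 and 1.07 in mock (1.03 ± 0.45, adjusted p = 0.132). Its arrays of experiment A lay above both groups' other arrays. Ccl17 was not called either (0.61 ± 0.28, adjusted p = 0.148). Vegfa, encoding vascular endothelial growth factor A, was the only member that fell (-1.95 ± 0.23). The adjusted p without the block was 0.255 for Vegfa.

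Chemokine genes moved in both directions. Of 17 tested CC and CXCR3-ligand chemokine genes 4 rose and 6 fell (2 and 2 without the block). The shares over all genes were 10.1% and 7.95%. The eosinophil chemokine gene Ccl24 rose by 4.81 ± 0.63, and the monocyte chemokine genes Ccl8 by 3.38 ± 0.27 and Ccl7 by 3.51 ± 0.60. Those of the macrophage inflammatory protein Ccl3 and the interferon-induced Cxcl10 fell, Ccl3 by 1.91 ± 0.22 and Cxcl10 by 2.32 ± 0.51. Of 18 tested chemoattractant receptor genes 2 rose and 8 fell (1 and 3 without the block), with the median -0.74. The called falls thus made up 8 of 18 receptors, against 7.95% of all genes. Ccr2, the receptor of monocyte recruitment, stood at 1.80, 3.03 and 1.69 after IL-4, against 3.96, 4.17 and 3.22 in mock (-1.61 ± 0.16, adjusted p = 2.55e-05), without overlap. The formyl peptide receptor genes Fpr1 (-2.08 ± 0.31) and Fpr2 (-1.76 ± 0.22) fell, as did, with overlapping arrays, the platelet-activating factor receptor gene Ptafr (-1.74 ± 0.30). The leukotriene receptor gene Ltb4r1 rose by 1.88 ± 0.28. Without the block, the adjusted p was 0.124 for Ccl7, 0.0508 for Ccr2, 0.0576 for Fpr2 and 0.223 for Ptafr.

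Growth factor and vascular genes gave 8 rises and 7 falls among 22 tested (6 and 2 without the block), against 10.1% and 7.95% of all genes. Among ligands, the EGF family gene Hbegf rose by 4.40 ± 0.55, second to Edn1, the placental growth factor gene Pgf by 2.11 ± 0.41 and the platelet-derived growth factor gene Pdgfa by 1.54 ± 0.28. Igf1, encoding insulin-like growth factor 1, stood at 5.57, 6.04 and 6.09 after IL-4, against 4.43, 4.73 and 5.37 in mock (1.05 ± 0.18, adjusted p = 0.00135), and its arrays did not overlap. Among receptors, Fzd4, a receptor of Wnt proteins, rose by 1.93 ± 0.39, while Fzd1 fell by 1.60 ± 0.42 (well above background on 2 of 3 IL-4 arrays) and the vascular receptor gene Kdr by 2.01 ± 0.42 with overlapping arrays. In the fit without the block, the adjusted p was 0.0592 for Pdgfa, 0.163 for Fzd1 and 0.597 for Kdr. The call of Fzd1 was lost without the mock array of A, the IL-4 array of B or the mock array of C (adjusted p = 0.064 to 0.0941).

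Several genes that sense bacteria or carry NF-kB signals fell. Of 21 tested Toll-like and pattern receptor genes 1 rose and 6 fell, against falls of 7.95% of all genes. After Tlr2, Cd14, the co-receptor for lipopolysaccharide, fell by 1.84 ± 0.22, the peptidoglycan sensor gene Nod2 by 1.33 ± 0.11 and the flagellin receptor gene Tlr5 by 1.16 ± 0.24. The lectin gene Clec4e, encoding the glycolipid receptor Mincle, fell by 2.36 ± 0.30. Of 17 genes of NF-kB subunits and inhibitors 2 rose and 6 fell (0 and 3 without the block), with Nfkbiz far ahead of Tnip1 (-1.02 ± 0.11) and Nfkbie (-0.88 ± 0.15). Of 12 tested inflammatory cytokine and neutrophil chemokine genes 2 rose and 4 fell (0 and 3 without the block), and 7 further genes of that list were on the array but were not kept by the filter on dim probes. No interferon-stimulated gene was called among 32 tested, 28 of which stood below 0 (median -0.24, range -1.50 to 0.57), but 8 of them fell in the fit of only the 6 arrays compared and 7 in the fit of the 12 mock and 4 h arrays. The adjusted p without the block was 0.0592 for Tnip1.

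Antigen presentation and costimulation genes gave calls in both directions. Of 15 MHC class II genes 2 rose and 1 fell (0 and 0 without the block), against 10.1% and 7.95% of all genes, and of 14 MHC class I genes 1 rose (0 without the block). Ciita, the master regulator of class II genes, stood at -0.59, -0.68 and -1.81 after IL-4, against -0.92, -1.80 and -3.02 in mock (0.89 ± 0.23, adjusted p = 0.0179), and its groups overlapped. The class II chain genes H2-Aa (0.01 ± 0.17, adjusted p = 0.98), H2-Ab1 (-0.08 ± 0.15) and H2-Eb1 (-0.02 ± 0.17) and the invariant chain gene Cd74 (0.16 ± 0.17) were not called. Of the B7 family and costimulation genes 3 rose and 2 fell (2 and 1 without the block) among 15, the rises being Pdcd1lg2, Cd274, encoding PD-L1 (1.99 ± 0.34), and Cd40 (1.99 ± 0.30). Tnfsf9, encoding the ligand of the T-cell receptor 4-1BB, fell by 1.78 ± 0.39, and Icosl, the ICOS ligand gene, by 1.19 ± 0.23. Among receptors of antibodies and matrix, Fcgr2b, the inhibitory Fc gamma receptor gene, rose by 2.45 ± 0.15 and the integrin gene Itgb3 by 1.76 ± 0.29. Without the block, the adjusted p was 0.735 for Ciita, 0.129 for Cd274 and 0.0874 for Tnfsf9. The call of Ciita was lost without the mock array of B, the mock array of C or the IL-4 array of C (adjusted p = 0.0551 to 0.0993).

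Ribosome biogenesis genes rose, and some DNA replication genes fell. All 27 genes of the list of ribosome biogenesis and Myc stood above 0, with the median 0.84, against 0.08 for all genes, and 23 rose. Without the block 1 of them was called, and leaving out 1 Irf4-/- array left 18 to 23. Dkc1, encoding the pseudouridine synthase dyskerin, rose by 1.59 ± 0.27, Nolc1 by 1.22 ± 0.26, Gnl3, encoding nucleostemin, by 1.21 ± 0.22 and Gar1, a partner of dyskerin, by 1.20 ± 0.17. Srm, encoding the polyamine enzyme spermidine synthase, rose by 1.70 ± 0.25. In contrast 32 of 33 DNA replication genes stood below 0 (median -0.52), and 8 fell. Without the block none of these was called, and leaving out 1 Irf4-/- array left 1 to 8. E2f2, a transcription factor gene of S phase, stood at 2.09, 2.01 and 1.51 after IL-4, against 2.97, 2.77 and 2.88 in mock (adjusted p = 0.00264), without overlap, and kept its call without any 1 of the 6 arrays. Among 27 mitosis genes 25 stood below 0 (median -0.37), and 1 fell, Ndc80, encoding a kinetochore protein (-0.85 ± 0.19). In the fit of only the 6 arrays compared 7 mitosis genes fell, and in that of the 12 mock and 4 h arrays 5. None was called without the block. Of 19 genes of cyclins, their kinases and kinase inhibitors 2 rose and 4 fell (0 and 1 without the block). Over all genes the shares were 10.1% and 7.95%. In this list 15 genes stood below 0, and the median was -0.34. The 2 rises were those of the inhibitor genes Cdkn2b (2.55 ± 0.40) and Cdkn1a (1.06 ± 0.16). In the fit without the block, the adjusted p was 0.124 for Dkc1, 0.168 for Nolc1, 0.288 for Gnl3, 0.32 for Gar1, 0.347 for Srm, 0.0874 for E2f2, 0.282 for Ndc80, 0.0527 for Cdkn2b and 0.142 for Cdkn1a.

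Few genes of lipid synthesis or respiration were called. No gene of cholesterol and fatty acid synthesis was called among 23 tested, with changes of -0.50 to 0.43, and 3 of 30 oxidative phosphorylation genes rose by at most 0.50, none of them without the block. Of these 30 genes 27 stood above 0, with the median 0.21, and 9 rose with the pool of cells as a fixed block. Counts under the background of 18.0% were also found for glycolysis and hypoxia (2 called of 21), lysosome genes (3 of 25), the BCL2 family (2 of 23) and transfer RNA synthetases with ATF4 targets (3 of 25, although all 25 stood above 0, with the median 0.32, and 8 rose with the slide as a fixed block). Of 21 genes of the NRF2 and peroxide defence 6 fell (2 without the block), against 7.95% of all genes. Hmox1, encoding the heme-degrading heme oxygenase 1, stood at 2.45, 2.84 and 2.82 after IL-4, against 3.38, 3.49 and 4.04 in mock (-0.93 ± 0.18, adjusted p = 0.00304), and Nfe2l2, the gene of NRF2 itself, fell by 0.95 ± 0.15. Beside the fall of Slc40a1, the iron-regulating gene Hfe (1.38 ± 0.19) and Tfrc, the transferrin receptor gene (1.37 ± 0.13), rose. Abca1, the cholesterol exporter gene and a target of LXR, fell by 1.87 ± 0.28. Of 24 tested genes of PPAR gamma, LXR and lipid uptake 3 rose and 6 fell (1 and 2 without the block), against 10.1% and 7.95% of all genes. Among proteinase inhibitors, Serpina3f (5.35 ± 0.40) rose beside its close copy Serpina3g, with probes that may share signal. Ion channel and carrier genes gave both Scn3a, a sodium channel gene that rose out of the background (5.16 ± 0.35, at least 9.92-fold), and the zinc carrier gene Slc30a4 (3.39 ± 0.19), while the potassium channel gene Kcnj2 fell by 2.38 ± 0.27. Of 20 genes of the unfolded protein response 1 rose, Pdia4 (1.40 ± 0.23), and of 12 heat shock genes 4 rose (1 without the block), led by Hsph1 (1.45 ± 0.15). The adjusted p without the block was 0.0584 for Tfrc and 0.121 for Abca1.

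**Figure D3:**
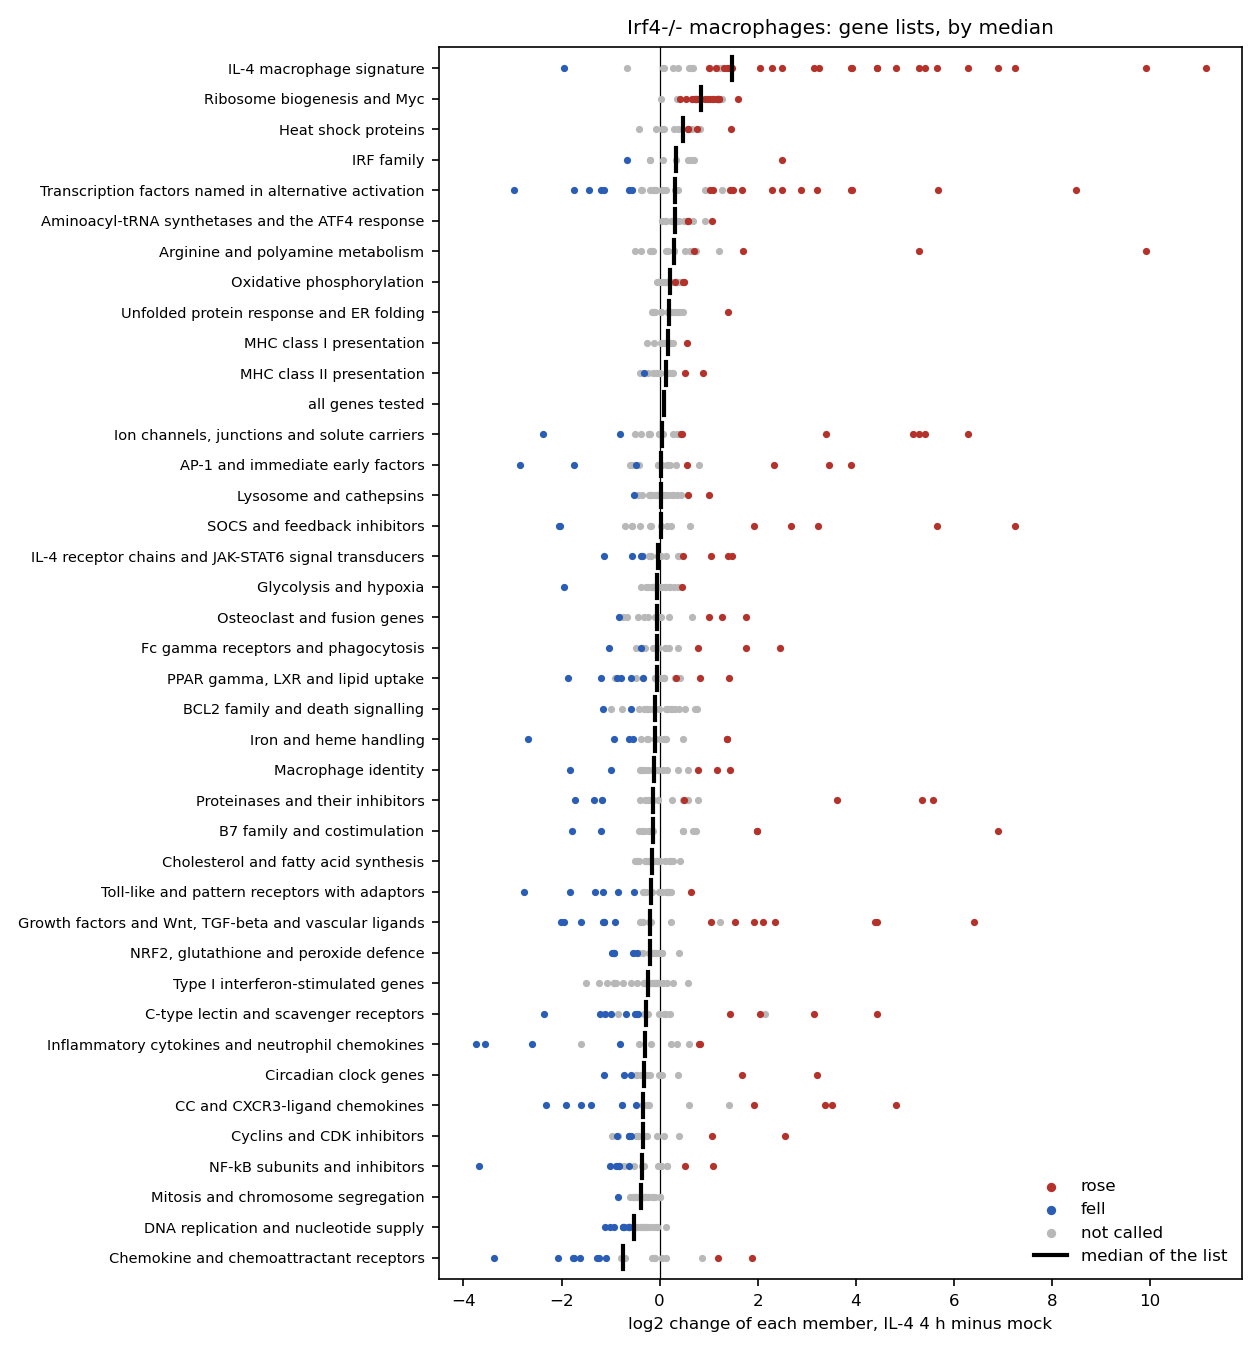
Change of every tested member of 39 gene lists in Irf4-/- macrophages (log2, 4 h of IL-4 minus mock), with rises in red, falls in blue, genes not called in grey and each list's median as a black bar, and the median of all genes tested on a line of its own. The IL-4 signature has the highest median, 1.47, and the chemoattractant receptors the lowest, -0.74.

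Markers of other cells were followed beside these lists, with rises of 10.1% and falls of 7.95% of all genes as the background for their counts. Of 7 tested monocyte markers, which are also expressed by macrophages, 4 fell, 3 of them Cx3cr1, Ccr2 and Nr4a1, and the log2 of their summed signal lay between 4.63 and 4.86 on the IL-4 arrays, against 5.41 and 5.88 at the ends of the mock arrays. Their part in the fall of the receptor list was not tested. The summed signal of 13 neutrophil markers (4.49 to 5.91 after IL-4, against 4.38 to 5.88 in mock), 13 dendritic cell markers (6.97 to 7.73, against 6.84 to 7.65) and 12 fibroblast markers (4.86 to 5.23, against 4.85 to 5.07) overlapped between the groups. The dendritic cell sum follows mostly Bst2 and the fibroblast sum mostly Acta2, the brightest probe of each list. Neutrophil markers differed between experiments in both directions. Mpo stood at 1.92 after IL-4 and 1.54 in mock in A, against -1.91 to -0.99 in B and C. Csf3r was lower in A, at 1.17 after IL-4 and 0.12 in mock, against 1.98 to 2.32 and 0.75 to 1.06 in B and C. Of the members called, the dendritic cell gene Clec9a fell, to background on all 3 IL-4 arrays, the matrix gene Sparc fell and the neutrophil receptor gene Csf3r rose, none of them without the block. Of the T and NK cell markers 1 of 9 tested rose, of the B-lineage markers none of 7, and of the basophil, mast cell and eosinophil markers 1 of 9 changed, Kit, which fell by 2.10 ± 0.34. The defining basophil gene Mcpt8, the B-lineage factor gene Ebf1 and the NK receptor gene Ncr1 were well above background on none of the 6 arrays. Among 9 erythroid and platelet markers 2 rose, Tfrc and the heme synthesis gene Alas2, which stood at -4.34, -5.80 and -2.07 after IL-4, against -5.14, -6.96 and -6.77 in mock with overlapping groups (2.22 ± 0.66, adjusted p = 0.0346). Without the block, the adjusted p was 0.189 for Alas2. The call of Alas2 was lost without the mock array of A, the mock array of B or the mock array of C (adjusted p = 0.0566 to 0.127).

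Whether the early response differed between genotypes was tested as the change in Irf4-/- minus the change in Irf4+/- macrophages. No gene was called with limma (0.0% of 15554), the lowest adjusted p being 1.00. An unadjusted p under 0.05 was found for 450 genes, a share of those tested below 0.05 itself. With the pool of cells as a fixed block, which pairs arrays of 1 genotype and experiment, it was found for 1234, and again no gene was called. The intervals given here come from the main fit, which has no pool block. In the fit of the log2 values from the authors' deposited table, 1 gene was called. Of the 2805 genes called in Irf4-/- cells, 2123 were called the same way in Irf4+/- cells, which is 75.7% of the calls in Irf4-/- and 75.9% of the 2797 calls in Irf4+/- (18.0% of genes, 9.89% upward and 8.09% downward). A further 2 were called the opposite way. For 2281 of them, or 81.3%, the 95% interval of the difference lay within 2-fold on either side, but this held for 13 of the 75 changes of at least 8-fold. For most of the steepest genes the interval reached beyond 2-fold, and some of these changes rest on mock signals at background.

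Single genes differed in how far their interval reached. No interval is given for Retnla, Arg1 or Gata3, whose mock signals lay at background on most or all arrays. Socs2 rose by 3.23 ± 0.48 in Irf4-/- and by 4.31 ± 0.48 in Irf4+/- cells, a difference of -1.08 ± 0.67 with an interval of -2.54 to 0.38. That of Cish was 0.33 ± 1.14 (-2.14 to 2.79), that of Socs1 -0.28 ± 0.54 (-1.44 to 0.88) and that of Mgl2 0.14 ± 0.33 (-0.58 to 0.85). Narrow intervals were found for Mrc1 (-0.06 ± 0.23, -0.56 to 0.43), Klf4 (0.19 ± 0.25, -0.35 to 0.73), Stat6 (-0.08 ± 0.14, -0.39 to 0.23) and Ccr2 (0.18 ± 0.23, -0.31 to 0.68). The 5 genes of lowest p, none of them called, were Npsr1 (0.88 ± 0.15), 1700116B05Rik (0.67 ± 0.14), Olfr38 (1.58 ± 0.34, not well above background on any Irf4+/- IL-4 array), Usp43 (1.24 ± 0.27, not well above background on any of the 6 Irf4-/- arrays) and Scube1 (0.94 ± 0.21).

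**Figure D4:**
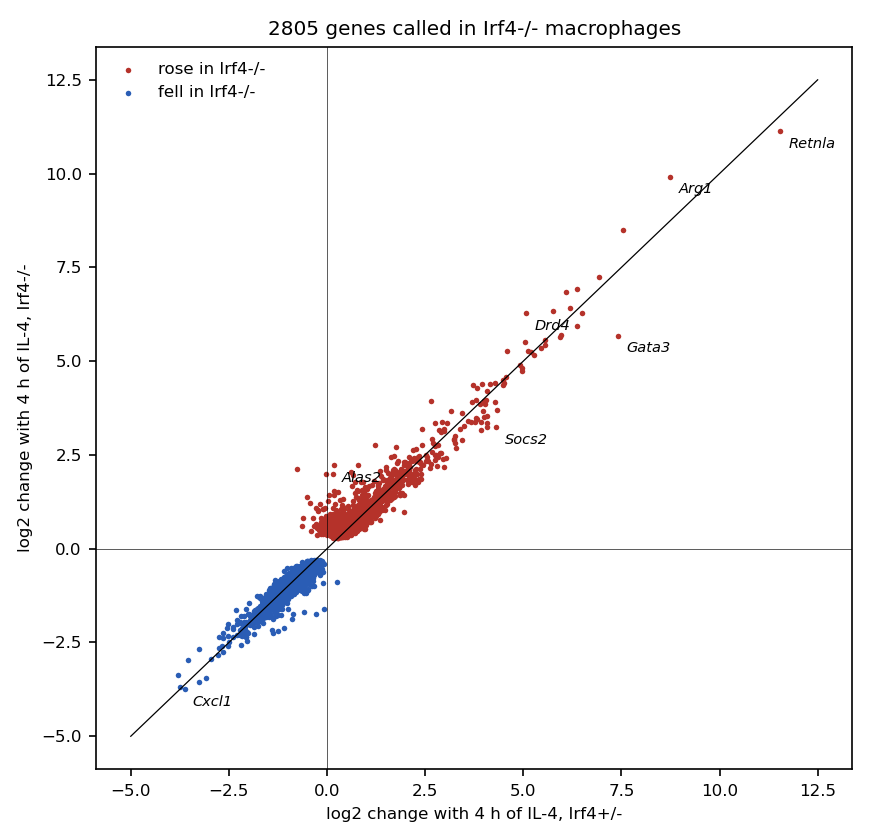
Change with 4 h of IL-4 (log2, 4 h minus mock) in Irf4-/- macrophages on the vertical axis against that in Irf4+/- macrophages on the horizontal axis, for the 2805 genes called in Irf4-/- cells, with the line of equal change. The points follow the line from Cxcl1 to Retnla, and Socs2 lies below it, at 3.23 in Irf4-/- and 4.31 in Irf4+/- cells. The positions of Retnla, Arg1 and Gata3 rest on mock signals at background.

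Set directly against Irf4+/- cells after 4 h of IL-4, Irf4-/- cells differed in 4 genes (0.0257% of those tested), all lower, which are named here after their values were seen. In every experiment the 4 h arrays of the 2 genotypes lay on different slides, and in A they were scanned on different days. Genotype and slide therefore cannot be told apart in this comparison. H2-Ab1 stood at 4.63, 3.79 and 2.92 in Irf4-/- cells, against 5.81, 5.28 and 3.97 in Irf4+/- cells, a difference of -1.24 ± 0.15 (adjusted p = 0.0233), and H2-Aa and H2-Eb1 differed by -1.22 ± 0.17 and -1.24 ± 0.17. The groups overlapped, and the difference stood within each experiment. Tnfrsf13c, encoding a receptor of the B-cell factor BAFF, was well above background on no Irf4-/- array. No gene was called without the block, with normexp background correction, in the fit of 12 arrays or without any 1 of 5 of the 6 arrays, and 2 were called without the Irf4+/- array of C. Between IL-4 and mock within Irf4-/- cells, the 3 class II genes had not been called.

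The later course was read as 18 h minus 4 h of IL-4 in Irf4-/- cells, which shares the 4 h arrays with the early change. The 2 groups also differ in culture time, so a longer action of IL-4 and the culture time cannot be told apart. Mock levels are those of an 18 h culture, not of a starting point. Of the genes tested 8.21% differed, 723 higher (4.65%) and 554 lower (3.56%) at 18 h, and without the block 88. The count was 600, 794 and 596 without the 4 h array of A, B and C, 541 without the 18 h array of C, and 504, 284 and 139 without all arrays of A, B and C. Retnla had reached 7.30, 5.58 and 6.72 at 18 h, 4.01 ± 0.38 above its 4 h level, and Mgl2 4.78, 4.88 and 5.14 (1.71 ± 0.23). Arg1 stood at 4.61, 3.27 and 4.94, 2.15 ± 0.64 above 4 h without a call (adjusted p = 0.0578), and Slc7a2 differed by -0.08 ± 0.24. Il4ra stood at 1.70, 2.28 and 2.66 at 18 h, -1.79 ± 0.25 from 4 h, close to its mock levels of 2.34, 2.59 and 2.67. Serpina3g (-2.64 ± 0.37), Gata3 (-3.47 ± 0.58), Socs1 (-1.38 ± 0.38) and Rasgrp1 (-2.27 ± 0.49) were also lower at 18 h. Fos (1.87 ± 0.36) and Hmox1 (1.42 ± 0.18), low at 4 h, were higher at 18 h, and Hmox1 then stood at 3.80, 4.11 and 4.47. Cxcl10 (-1.96 ± 0.51) went lower still. Chil3 (1.93 ± 0.45, adjusted p = 0.0203) and Pparg (0.94 ± 0.25, adjusted p = 0.0341), neither called at 4 h, were higher at 18 h. Of 32 interferon-stimulated genes 13 were lower at 18 h than at 4 h, and of the 27 ribosome biogenesis genes 14, against 3.56% of all genes.

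**Figure D5:**
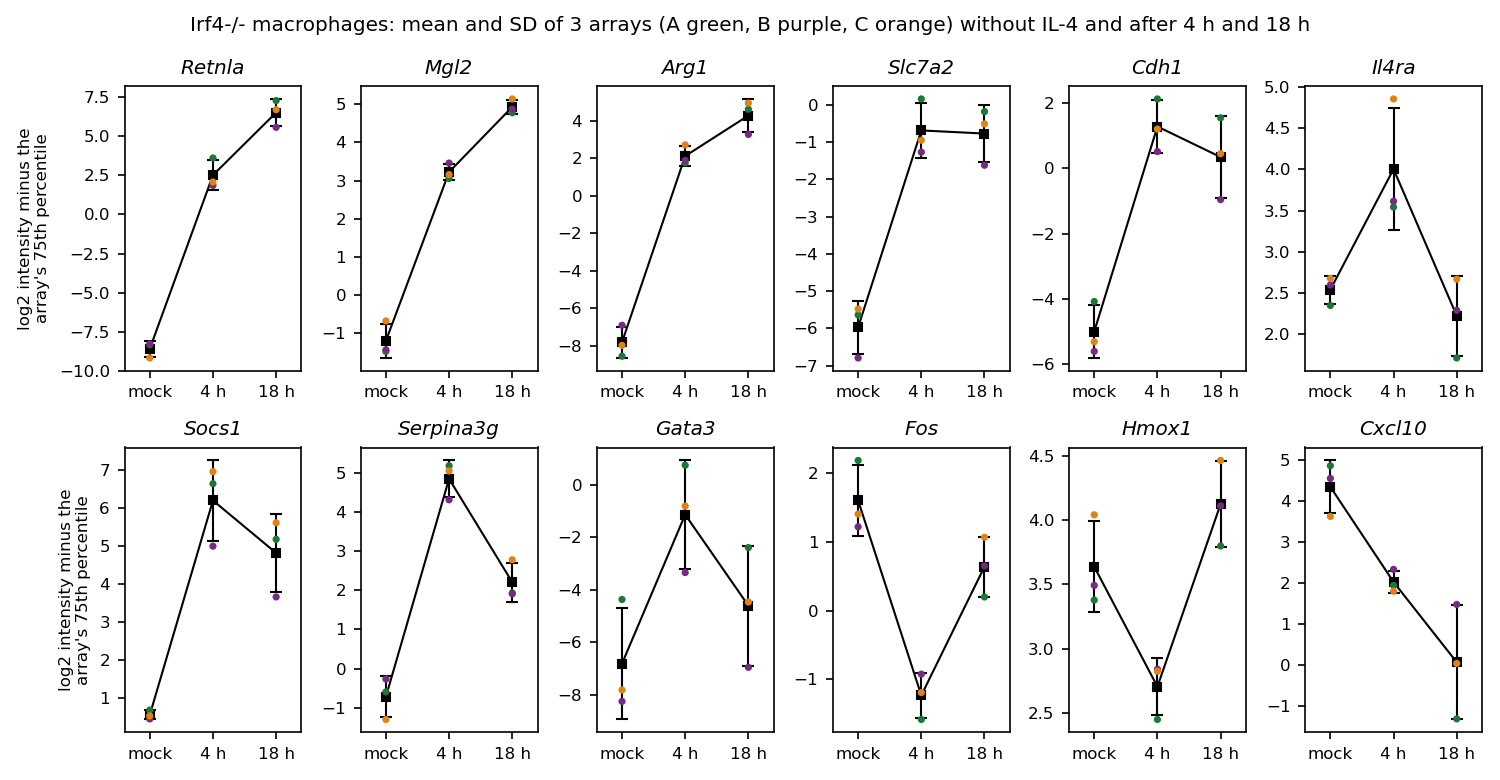
Level of 12 genes in Irf4-/- macrophages without IL-4 and after 4 h and 18 h of it (log2 intensity less the 75th percentile), with each array as a point and squares with bars for the mean and SD of 3. Mock is an 18 h culture, so the panels do not show a course from a starting point. By the mean of each group, Retnla and Mgl2 are highest after 18 h of IL-4. Il4ra and Serpina3g are highest, and Fos and Hmox1 lowest, after 4 h.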

How the data were processed

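Total RNA of each culture was hybridised to 1 array, and the deposited scanner files hold intensity values per spot, background-subtracted by Agilent Feature Extraction 9.5.1, per the file headers. The deposited table of the authors holds log2 values of the same arrays, which followed the scanner values at 0.99995 or closer over 23604 bright probes and served as an alternative. From the intensity of 43379 spots per array outside the controls, log2 values minus the array's 75th percentile were taken, spots of a probe averaged, dim probes left out and 1 probe kept per gene. Precision is limited by the number of arrays, 3 per group.

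Changes were tested with limma 3.58.1 in R 4.3.3, on 6 groups with the experiment letter as a block, and Benjamini-Hochberg adjustment over 15554 genes. The letters were taken to mark the independent experiments of the study design, and IL-4 and mock arrays of 1 letter deviated together at correlations of 0.83, 0.64 and 0.65. Alternatives were other blocks, scalings, background corrections, filters, sample sets and left-out arrays.

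Genes were named by a rule: the 15 largest rises and falls, up to 5 called members per list with the largest changes, and a set of IL-4 genes given whether called or not; a few of these genes are not reported here. The samples, members and lists were chosen with earlier results of these data known. Promoter windows came from RefSeq (GRCm38.p6), searched in Python 3.11.15 on both strands with 1 window per gene, for 11689 of the genes tested.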

Additional observations from a re-analysis of the deposited data

How the results depend on the processing

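The count of 2805 genes changed by 4 h of IL-4 in Irf4-/- cells was 594 without the replicate block (the letters were taken to pair samples of 1 experiment), 5437 with the pool of cells as a fixed block, 736 with normexp background correction (65.8% of them up) and 4213 with the slide as a random block. With quantile normalization it was 2924, 47.9% of them up, against 55.9%. Leaving out 1 array or 1 experiment gave 984 to 2473. The count of 1277 genes for 18 h minus 4 h of IL-4 was 88 without the replicate block, 3117 with the pool block, 108 with normexp, 807 with no filter on dim probes, 3065 and 2714 with the slide as a random and as a fixed block, and 139 to 871 with arrays left out. The genotype difference of the response gave 1 call in place of 0 in the authors' deposited log2 values, and no call in any leave-one-out fit (0 to 0). The 4 genes that differed between genotypes after 4 h became 0 without the replicate block, in the fit of 12 arrays, with normexp, with no filter and in the authors' deposited log2 values, 1 with quantile normalization and 0 to 2 with arrays left out, and the pool block could not be fitted. Under normexp the IL-4 change of 4 genes, none of them called there, had the opposite sign: 1700116B05Rik (-0.30), Npsr1 (-0.44), Scube1 (-0.34) and Usp43 (-0.58). Of 121 genes given with a change, 112 were called, and 51 of these were called under each of the 23 alternatives in which they were tested. Only 100 of the 121 were tested where probes had to be well above background on all 18 arrays. Without the replicate block 32 calls were lost and, beside the 4 genes above, 36 with normexp. The cause of these shifts was not tested. Normexp moved the median of all genes to -0.14, against 0.08.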
